A study of Mus musculus with 2 samples.

Results

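Semaphorins, plexins and neuropilins are the ligands and receptors of one family of guidance signals, and 31 of their genes were followed here through total RNA-seq of the embryonic mouse hindbrain. They were chosen by family name from the 43346 genes of the deposited tables, 20 semaphorins as ligands and 9 plexins with 2 neuropilins as receptors. The rule uses names and no measured value, although earlier results of these data were known when the list was drawn up. All 31 had a row in both gene tables and 185 annotated transcripts between them. The tissue was hindbrain of healthy B6NCrl embryos at day 15.5, males and females mixed, with no treatment and no second condition. Replicate 2 was a pool of 62 embryos and replicate 1 a pool of 78, each giving 1 library; the input was 10 ng of RNA, and ERCC spike-ins were added. With 1 group and 1 library per pool there was no contrast to test, so no p-value is given, and each SD (n = 2) holds pool, preparation and counting error together.

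Semaphorins share an extracellular sema domain and bind plexins, whose cytoplasmic part acts on small GTPases and so on the cytoskeleton of the growth cone. Class 3 semaphorins are secreted, and most of them need a neuropilin as the binding partner beside an A-type plexin. Classes 4, 5 and 6 span the membrane and generally bind plexins directly, and the class 7 protein is held by a lipid anchor. In the developing hindbrain the family is known for guiding axons of cranial nerves and for the migration of cerebellar granule cells.

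Estimated counts summed over genes came to 43263959 in replicate 2 and 40020322 in replicate 1, of which the family took 0.192% and 0.182%. Its members had between 55 and 8013 counts per library. Levels below are in TPM, a share of all transcripts corrected for their length, in which different genes can be set side by side. Over all nuclear protein-coding genes, 63.1% reached 1 TPM in both libraries. Of 15 genes that mark hindbrain position, 14 reached 1 TPM in both libraries and En2 did not, whereas of 12 forebrain position genes 1 did. That gene, Lhx2, was at 9.96 TPM in replicate 2 and 50.7 in replicate 1, while Dlx1 was at 5.52 TPM in replicate 2 and 0.30 in replicate 1. Both were singled out after their values were seen. The pools therefore differed in some regional markers. In pooled bulk tissue, fewer cells of a type and less RNA per cell cannot be told apart, and a ligand and its receptor measured together need not be in neighbouring cells.

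Nearly the whole family was present. At 1 TPM or more in both libraries, 28 of the 31 genes were detected, against 63.1% of 21461 nuclear protein-coding genes. The 3 that were not detected were Sema3d at 0.95 TPM in replicate 2 and 1.42 in replicate 1, Sema3g at 0.65 TPM in replicate 2 and 0.48 in replicate 1, and Plxnb3 at 0.64 TPM in replicate 2 and 0.86 in replicate 1. The median member was at 15.97 TPM in replicate 2 and 15.39 in replicate 1, averaging 15.7 TPM, and the median nuclear protein-coding gene averaged 5.72 TPM over both libraries. Among detected coding genes alone the median was 19.4 TPM, above the family's 15.7 TPM, which covers all 31 members with the 3 not detected. Plxnb2 was highest, at 81.7 TPM in replicate 2 and 71.4 in replicate 1, above 89.7% of nuclear coding genes. Sema6a, Plxna3 and Nrp1 followed it in that order. Of the 30 neighbouring pairs in the order of mean levels, 17 had values that did not overlap between the 2 genes and 13 overlapped, so on gene TPM the top 3 genes stood apart while the order was loose between Nrp1 and Plxna1, between Sema6c and Nrp2, among Sema4b, Sema5b and Sema4f, and from Plxnb1 to Plxna4. On mean protein-coding TPM Plxnb2 kept rank 1, and Nrp1 and Sema6a followed at ranks 2 and 3. The order of the latter 2 was loose. In replicate 2 Sema6a was at 38.3 TPM and Nrp1 at 36.1, and in replicate 1 Sema6a was at 29.1 and Nrp1 at 35.9. Plxna1, at 34.1 TPM in replicate 1, was also above Sema6a there. Nrp1 has 1 transcript in the deposited tables, so its whole TPM counts as coding. That transcript, Nrp1-201, has 5907 nucleotides there and 3597 in GENCODE M21, from which transcript types were taken.

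**Figure D1:**
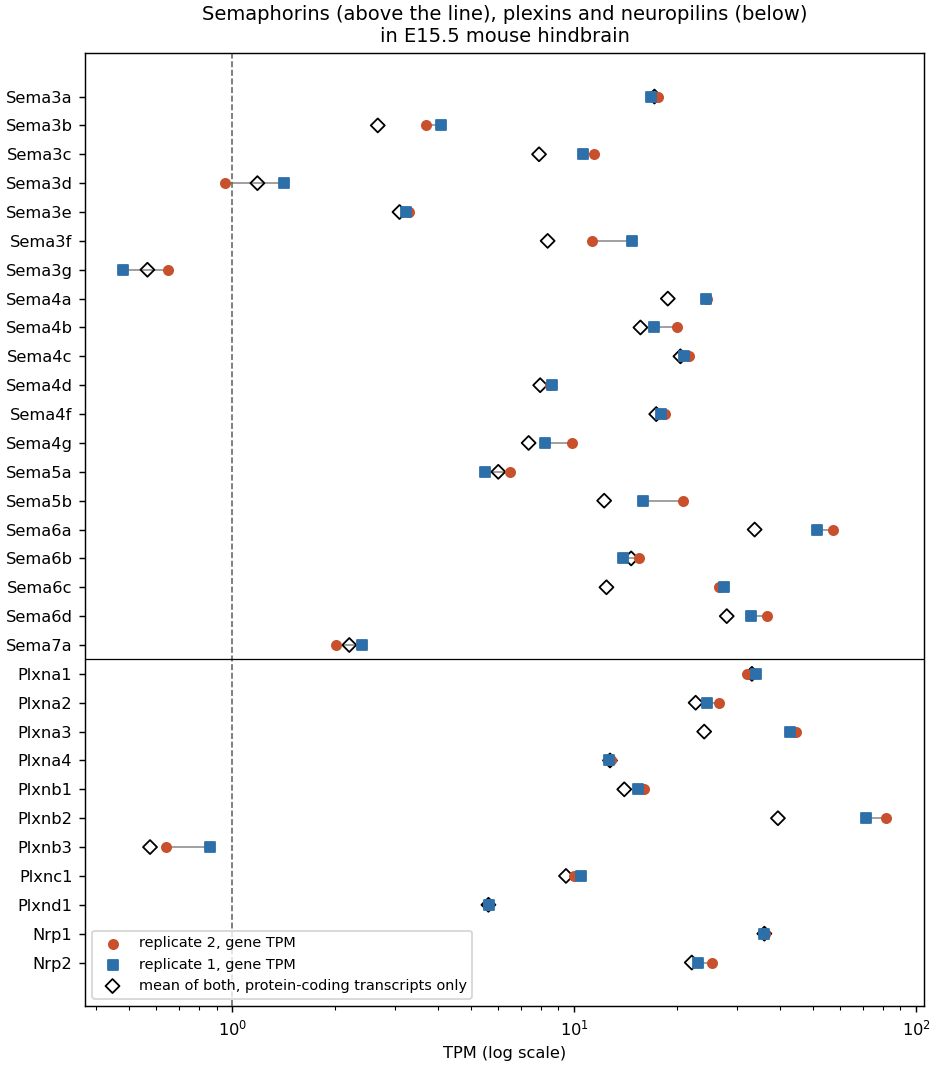
Level of each semaphorin, plexin and neuropilin gene on a log axis of TPM in replicate 2 (circles) and replicate 1 (squares), with the mean over protein-coding transcripts only (open diamonds). The dashed line is 1 TPM; 3 genes lie below it in at least 1 library, and Plxnb2 is highest by gene TPM.

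Class 3, the secreted ligands, was the lowest of the large classes. Its 7 genes summed to 48.9 TPM in replicate 2 and 51.3 in replicate 1, and 5 of them were detected. Sema3a, which binds Nrp1 and is the classic growth cone collapsing ligand, led the class with 17.6 TPM in replicate 2 and 16.8 in replicate 1. Sema3f, a ligand of Nrp2, was at 11.3 TPM in replicate 2 and 14.7 in replicate 1, the widest spread among the detected class 3 genes relative to their levels. Summed over its protein-coding transcripts alone, Sema3f stood at 8.44 TPM in replicate 2 and 8.29 in replicate 1, values that lie close together. Sema3c, which signals through neuropilins and Plxnd1, was at 11.5 TPM in replicate 2 and 10.6 in replicate 1. Lower values came from Sema3b, at 3.70 TPM in replicate 2 and 4.08 in replicate 1, and from Sema3e, the ligand that binds Plxnd1 without a neuropilin, at 3.28 TPM in replicate 2 and 3.23 in replicate 1. Sema3a, Sema3c, Sema3d and Sema3e lie on chromosome 5, and their levels ran from 1.19 to 17.2 TPM, nearly the whole range of the class.

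Class 4 members were all detected and lay in a narrower band. The 6 genes summed to 102.8 TPM in replicate 2 and 97.2 in replicate 1. Sema4a, a ligand also known from the immune system and the retina, was at 24.5 TPM in replicate 2 and 24.3 in replicate 1. Sema4c, a Plxnb2 ligand, was at 21.6 TPM in replicate 2 and 21.0 in replicate 1, so these 2 genes differed little between the pools. Sema4b was at 20.0 TPM in replicate 2 and 17.1 in replicate 1, and Sema4f at 18.4 TPM in replicate 2 and 17.9 in replicate 1. Lowest in the class were Sema4g, another Plxnb2 ligand, at 9.86 TPM in replicate 2 and 8.22 in replicate 1, and the Plxnb1 ligand Sema4d, at 8.49 TPM in replicate 2 and 8.59 in replicate 1. The Sema4d values lay below the gene's own deposited credibility intervals, 8.79 to 11.0 TPM in replicate 2 and 8.79 to 11.3 TPM in replicate 1, and the Sema3f value in replicate 2 lay below an interval of 11.5 to 14.8 TPM.

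RefSeq gives Sema4c 2 start sites 824 nucleotides apart on the minus strand of chromosome 1, and isoforms whose annotated 5′ ends lie within 50 nucleotides of a site were assigned to it. Sema4c-201 and Sema4c-203 at the upstream site and Sema4c-202 and Sema4c-208 at the downstream site all have coding sequences of 2502 nucleotides, and Sema4c-205, also at the downstream site, has one of 113. Isoforms at the upstream site held 12.3 TPM in replicate 2 and 12.4 in replicate 1, or 56.7% and 59.2% of the gene. Those at the downstream site held 7.71 TPM in replicate 2 and 7.14 in replicate 1, or 35.6% and 34.0%. Single isoforms had wide deposited credibility intervals. That of Sema4c-201 ran from 5.82 to 10.0 TPM in replicate 2 and from 6.98 to 11.4 in replicate 1. That of Sema4c-208 ran from 1.92 to 7.15 TPM in replicate 2 and from 2.84 to 7.04 in replicate 1. The site sums were given no interval, so the split between the sites is approximate. Sema4c-207, which begins at neither site, held 0.99 TPM in replicate 2 and 0.38 in replicate 1. Both windows of 250 bases before to 50 after the start are shown because isoforms assigned to each site carried a large share of the gene. They are RefSeq sequences of GRCm38.p6 at chr1:36558332-36558631 and chr1:36557508-36557807, 5′ to 3′ along the minus strand, with matches to the GC box core GGGCGG on either strand in capitals.
Sema4c upstream start: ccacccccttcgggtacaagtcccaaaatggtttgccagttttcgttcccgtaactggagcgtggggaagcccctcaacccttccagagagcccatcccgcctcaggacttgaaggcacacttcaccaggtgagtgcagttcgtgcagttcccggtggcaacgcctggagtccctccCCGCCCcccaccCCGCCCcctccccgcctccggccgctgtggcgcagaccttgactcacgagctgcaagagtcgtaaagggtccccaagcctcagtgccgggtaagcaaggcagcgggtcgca
Sema4c downstream start: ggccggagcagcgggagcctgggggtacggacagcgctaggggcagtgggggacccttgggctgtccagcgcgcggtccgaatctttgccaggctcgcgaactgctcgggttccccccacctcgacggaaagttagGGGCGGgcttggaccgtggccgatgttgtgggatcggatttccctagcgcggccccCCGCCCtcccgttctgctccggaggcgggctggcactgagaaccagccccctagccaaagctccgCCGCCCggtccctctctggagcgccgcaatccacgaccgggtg
The upstream window held 2 such matches and the downstream one 3, and 35.7% of all 32851 RefSeq windows of this length held at least 1. Neither TATAAA (13.6% of all windows) nor CCAAT (37.4%) occurred on either strand, and no matches to different motifs overlapped. The GC content was 64.3% upstream and 70.3% downstream, with 19 and 30 CpG dinucleotides, against medians of 52.7% and 7 over all windows. A match is a description of letters, not a bound site. Sema4c also shares 334 exonic nucleotides with D430040D24Rik on the opposite strand, and since no source used here gives the strand setting of the counting, reads in that stretch cannot be told apart. D430040D24Rik itself was at 1.10 TPM in replicate 2 and 1.05 in replicate 1.

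The class 5 ligands, which carry thrombospondin repeats, summed to 27.3 TPM in replicate 2 and 21.4 in replicate 1. Sema5b was at 20.8 TPM in replicate 2 and 15.9 in replicate 1, and Sema5a at 6.51 TPM in replicate 2 and 5.49 in replicate 1, so both were higher in replicate 2. Sema7a, the lipid-anchored ligand of Plxnc1 and of beta1 integrins, was at 2.01 TPM in replicate 2 and 2.39 in replicate 1, the lowest of the detected members.

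By gene TPM, class 6 had the largest summed level of any ligand class or receptor group, with 135.5 TPM in replicate 2 and 125.4 in replicate 1 from 4 genes. Sema6a, a ligand of Plxna2 and Plxna4 with a known role in granule cell migration, was at 57.1 TPM in replicate 2 and 51.1 in replicate 1. Sema6d, a Plxna1 ligand, was at 36.6 TPM in replicate 2 and 32.9 in replicate 1. Sema6c was at 26.5 TPM in replicate 2 and 27.5 in replicate 1, and Sema6b at 15.5 TPM in replicate 2 and 13.9 in replicate 1. On protein-coding transcripts alone the class came to 97.6 TPM in replicate 2 and 79.96 in replicate 1, against 91.2 TPM in replicate 2 and 83.9 in replicate 1 for class 4, and 93.5 TPM in replicate 2 and 91.5 in replicate 1 for the A-type plexins. On that measure class 6 was the highest group in replicate 2, and the A-type plexins were in replicate 1, where class 6 also lay below class 4.

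The isoforms of Sema6d differ in which of 4 alternative stretches their coding sequences contain, each a multiple of 3 nucleotides long. Sema6d-208, which holds none of them, led with 13.6 TPM in replicate 2 and 11.4 in replicate 1. Next came Sema6d-206, which joins the 57, 156 and 12 nucleotide stretches, at 8.57 TPM in replicate 2 and 7.31 in replicate 1. Sema6d-204, with the 39 and 57 nucleotide stretches, was at 3.64 TPM in replicate 2 and 3.88 in replicate 1, and Sema6d-203, with the 156 and 12 nucleotide ones, at 3.63 TPM in replicate 2 and 1.80 in replicate 1. The stretches that set these isoforms apart are shown with 20 bases of the isoform on each side in lower case and the alternative part in capitals; they lie on the plus strand of GRCm38 at chr2:124660244-124660282, chr2:124660705-124660761, chr2:124662204-124662359 and chr2:124662360-124662371.
Sema6d 39-nucleotide stretch: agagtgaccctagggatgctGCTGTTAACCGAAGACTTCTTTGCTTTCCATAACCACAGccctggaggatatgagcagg
Sema6d 57-nucleotide stretch: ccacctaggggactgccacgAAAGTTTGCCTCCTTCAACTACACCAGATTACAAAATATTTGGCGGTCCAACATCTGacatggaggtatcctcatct
Sema6d 156-nucleotide stretch: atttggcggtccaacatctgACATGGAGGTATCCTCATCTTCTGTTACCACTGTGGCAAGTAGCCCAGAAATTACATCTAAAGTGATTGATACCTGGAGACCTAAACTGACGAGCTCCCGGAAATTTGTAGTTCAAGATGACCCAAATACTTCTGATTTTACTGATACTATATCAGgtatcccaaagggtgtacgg
Sema6d 12-nucleotide stretch: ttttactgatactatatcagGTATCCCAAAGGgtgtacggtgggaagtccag
Of the summed TPM of coding Sema6d isoforms, the 39-nucleotide stretch was in 12.3% in replicate 2 and 15.6% in replicate 1. The 57-nucleotide stretch was in 41.7% in replicate 2 and 47.7% in replicate 1, and the 156-nucleotide stretch in 41.6% in replicate 2 and 39.6% in replicate 1. The adjoining 12 nucleotides were in 40.1% in replicate 2 and 35.8% in replicate 1. The shares differed between the pools by a few percentage points, and the order of the 3 leading isoforms did not change.

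Among the receptors, the A-type plexins, partners of neuropilins and of class 6 ligands, were all detected and summed to 116.0 TPM in replicate 2 and 114.0 in replicate 1. Plxna3, which works with Nrp2 in class 3 signalling, was at 44.6 TPM in replicate 2 and 42.7 in replicate 1. Plxna1 was at 32.1 TPM in replicate 2 and 34.1 in replicate 1, and it shares 970 exonic nucleotides with Gm26811 on the opposite strand, itself at 0.28 TPM in replicate 2 and 0.42 in replicate 1. Plxna2 was at 26.5 TPM in replicate 2 and 24.5 in replicate 1. Plxna4, which also receives Sema3a signals, was lowest of the 4 with 12.8 TPM in replicate 2 and 12.7 in replicate 1.

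The B-type plexins, receptors of class 4 ligands, spanned the widest range of any group. Plxnb2, known for its part in granule cell development, was the highest of all members, while Plxnb1 was at 16.0 TPM in replicate 2 and 15.4 in replicate 1 and Plxnb3 was not detected. Plxnb1 shares 257 exonic nucleotides with Gm7628 on the opposite strand. Plxnc1, the Sema7a receptor, was at 9.98 TPM in replicate 2 and 10.5 in replicate 1. Plxnd1, best known from blood vessels, was at 5.58 TPM in replicate 2 and 5.65 in replicate 1. Nrp1, which also binds VEGF, was at 36.1 TPM in replicate 2 and 35.9 in replicate 1, and Nrp2 at 25.4 TPM in replicate 2 and 23.0 in replicate 1.

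Nrp2 isoforms end in 1 of 2 alternative coding tails, known as the a and b forms, which differ in their transmembrane and cytoplasmic parts. The a-form tail of 302 nucleotides was in 58.6% of coding Nrp2 TPM in replicate 2 and 54.8% in replicate 1, and the b-form tail of 278 nucleotides in 41.4% in replicate 2 and 45.2% in replicate 1. Both tails and 2 short stretches before them are shown because the isoforms of this receptor are told apart by them, with the alternative part in capitals and 20 bases of flank in lower case. Each tail runs up to its stop codon, and of the a tail the last 300 bases are given, without flank. On the plus strand of GRCm38 they lie at chr1:62815335-62815634 (a tail), chr1:62795709-62795986 (b tail), chr1:62812534-62812584 and chr1:62786302-62786316.
Nrp2 a tail: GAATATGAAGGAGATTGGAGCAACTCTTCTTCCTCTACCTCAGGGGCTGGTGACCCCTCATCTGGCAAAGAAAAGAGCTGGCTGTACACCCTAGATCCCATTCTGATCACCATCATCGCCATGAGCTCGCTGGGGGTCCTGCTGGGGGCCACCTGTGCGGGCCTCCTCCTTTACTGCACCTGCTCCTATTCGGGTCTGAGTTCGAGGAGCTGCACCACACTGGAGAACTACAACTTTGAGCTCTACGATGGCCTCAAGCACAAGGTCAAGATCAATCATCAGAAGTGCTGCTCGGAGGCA
Nrp2 b tail: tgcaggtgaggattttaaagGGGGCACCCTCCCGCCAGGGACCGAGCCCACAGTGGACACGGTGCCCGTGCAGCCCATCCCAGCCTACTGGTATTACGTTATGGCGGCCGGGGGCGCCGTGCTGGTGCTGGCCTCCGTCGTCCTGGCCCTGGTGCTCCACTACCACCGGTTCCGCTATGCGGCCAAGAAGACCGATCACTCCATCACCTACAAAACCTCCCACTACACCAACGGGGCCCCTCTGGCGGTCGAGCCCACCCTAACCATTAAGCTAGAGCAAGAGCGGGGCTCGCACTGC
Nrp2 51-nucleotide stretch: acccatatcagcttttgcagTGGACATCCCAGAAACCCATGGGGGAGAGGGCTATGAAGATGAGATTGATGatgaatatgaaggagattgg
Nrp2 15-nucleotide stretch: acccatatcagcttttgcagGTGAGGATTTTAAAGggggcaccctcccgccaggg
Nrp2-204, the a tail alone, led with 10.1 TPM in replicate 2 and 8.41 in replicate 1. Nrp2-201, the 15-nucleotide stretch with the b tail, was at 7.47 TPM in replicate 2 and 7.61 in replicate 1. Nrp2-202, the 51-nucleotide stretch with the a tail, was at 3.23 TPM in replicate 2 and 2.75 in replicate 1, and Nrp2-205, the b tail alone, at 2.14 TPM in replicate 2 and 1.87 in replicate 1. The a tail came mostly without the short stretches and the b tail mostly with the 15-nucleotide one. One a-form isoform with the 15-nucleotide stretch, Nrp2-203, was listed at 0 TPM in both libraries, but its deposited credibility interval reached 4.73 TPM in replicate 2 and 3.26 in replicate 1, and that of Nrp2-204 reached down to 4.49 TPM in replicate 2 and 4.59 in replicate 1. The split among a-form isoforms is therefore less certain than the split between tails.

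**Figure D2:**
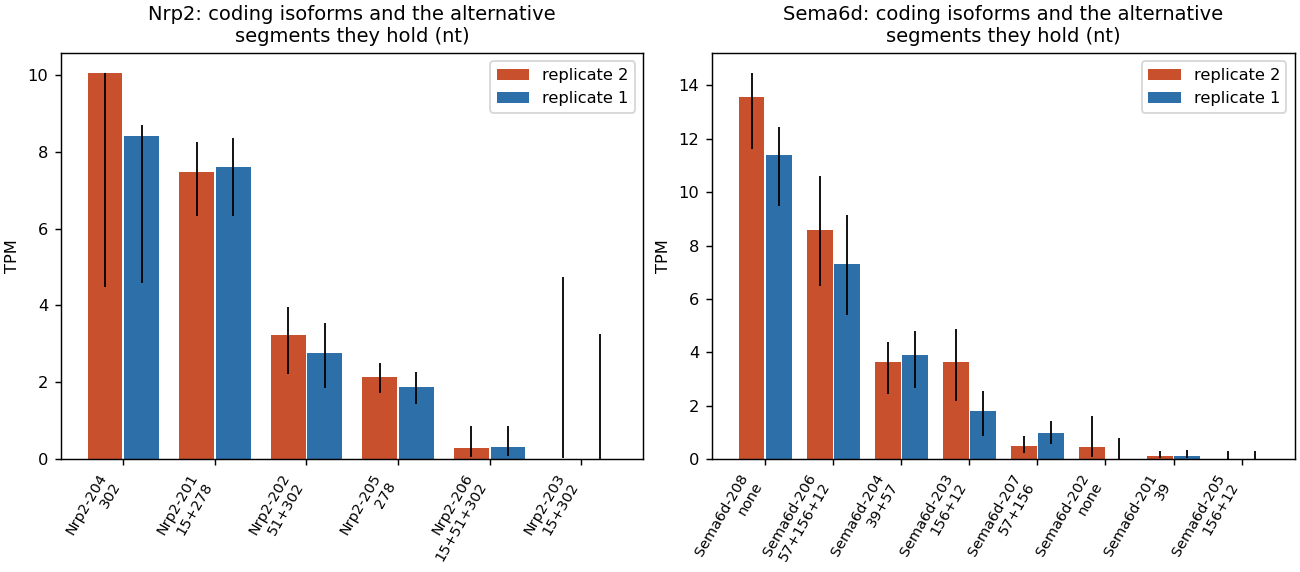
TPM of each coding isoform of Nrp2 (left) and Sema6d (right) in replicate 2 and replicate 1, with the deposited credibility interval as a line and the alternative stretches each isoform holds, in nucleotides, under its name. Nrp2-204 leads at 10.1 TPM in replicate 2 and 8.41 in replicate 1, and the interval of Nrp2-203 extends far above its listed 0 TPM.

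Ligands and receptors made up nearly equal parts of the family's summed TPM. On estimated counts, which are not divided by length, the ligand share was 41.2%. The 20 ligands summed to 316.5 TPM in replicate 2 and 297.6 in replicate 1, and the 11 receptors to 291.3 TPM in replicate 2 and 276.6 in replicate 1. The ligand share was 52.1% in replicate 2 and 51.8% in replicate 1, or 52.0% ± 0.178 (SD, n = 2). A single ligand was typically lower than a single receptor: the ligand median was 13.5 TPM in replicate 2 and 14.3 in replicate 1, and the receptor median 25.4 TPM in replicate 2 and 23.0 in replicate 1. The ratio of ligand to receptor median was 0.531 in replicate 2 and 0.623 in replicate 1, averaging 0.577 ± 0.0656 (SD, n = 2), below 1 in both libraries. Genes of the 2 groups are not replicates of one another, so this difference was not tested.

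Known ligand and receptor pairs were set side by side for 20 combinations, many of which share a gene. The ligand was higher than its receptor in both libraries in 6 pairs and lower in both in 13. Sema6a stood above Plxna2 by 2.15-fold in replicate 2 and 2.09-fold in replicate 1, and above Plxna4 by 4.46-fold in replicate 2 and 4.03-fold in replicate 1. On protein-coding transcripts these ratios were smaller, 1.63 in replicate 2 and 1.34 in replicate 1 for Plxna2, and 2.998 in replicate 2 and 2.30 in replicate 1 for Plxna4. Sema3c over Plxnd1 was 2.05 in replicate 2 and 1.88 in replicate 1, while Sema3e over the same receptor was 0.588 in replicate 2 and 0.572 in replicate 1. Among other pairs with the ligand below, Sema3a over Nrp1 was 0.487 in replicate 2 and 0.467 in replicate 1. Sema3f over Nrp2 was 0.444 in replicate 2 and 0.641 in replicate 1 by gene TPM, against 0.364 in replicate 2 and 0.396 in replicate 1 on protein-coding transcripts. Sema4d over Plxnb1 was 0.532 in replicate 2 and 0.558 in replicate 1, and Sema7a over Plxnc1 was 0.201 in replicate 2 and 0.228 in replicate 1. Sema6d over Plxna1 was 1.14 in replicate 2 and 0.963 in replicate 1, so this pair changed sides between libraries on gene TPM, whereas on protein-coding transcripts it was 0.948 in replicate 2 and 0.746 in replicate 1, below 1 in both. Sema4c over Plxnb2 was 0.265 in replicate 2 and 0.294 in replicate 1 by gene TPM, but 0.497 in replicate 2 and 0.544 in replicate 1 on protein-coding transcripts.

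**Figure D3:**
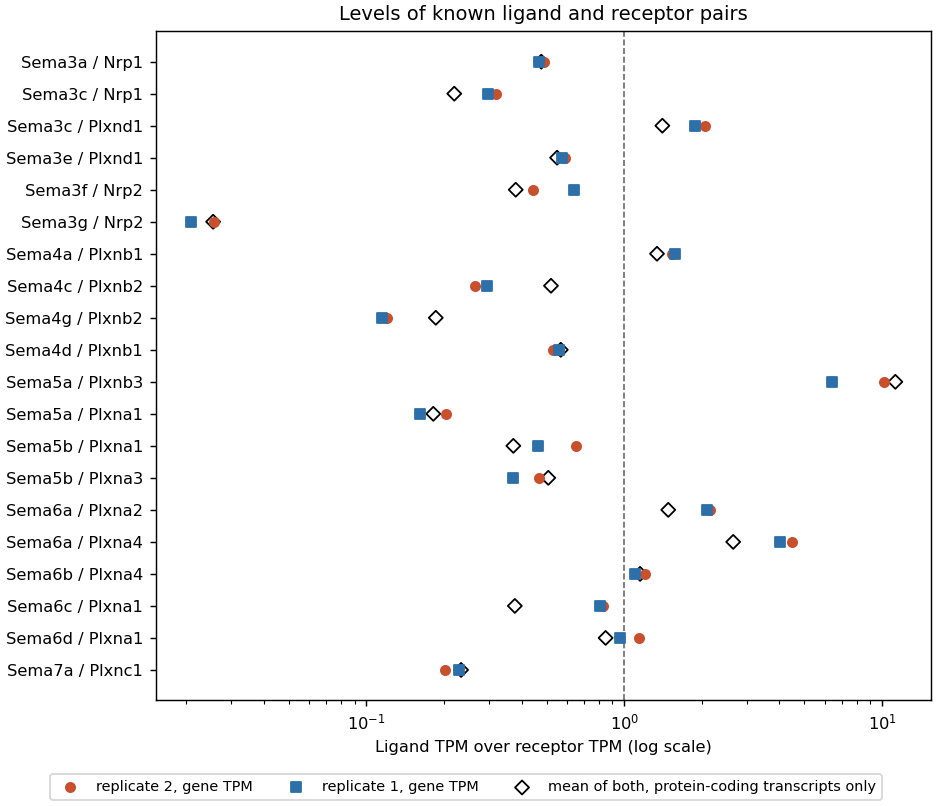
TPM of the ligand over TPM of the receptor, on a log axis, for each of 20 known pairs in replicate 2 (circles) and replicate 1 (squares), with the mean on protein-coding transcripts as open diamonds. The dashed line marks equal levels; 6 pairs lie right of it in both libraries and 13 left of it, and Sema5a over the barely measured Plxnb3 is the farthest right.

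The gene values of some members rest in large part on transcripts that are not annotated as protein-coding. Protein-coding transcripts held a median of 91.4% of gene TPM over all 31 members, including the 3 not detected. Over detected nuclear coding genes only, the median was 98.2%. Among the 28 detected members, 9 had under 80% of their TPM in protein-coding transcripts, while 24.3% of detected nuclear coding genes did. They were Sema6c with 46.2%, Plxnb2 with 51.5%, Plxna3 with 55.0%, Sema6a with 62.0%, Sema3f with 65.6%, Sema5b with 66.7%, Sema3b with 68.5%, Sema3c with 71.6% and Sema4a with 77.0%. In Plxnb2, the processed transcript Plxnb2-205 of 841 nucleotides took 40.9% of gene TPM in replicate 2 and 42.4% in replicate 1, but only 8.46% of the gene's estimated counts in replicate 2 and 8.80% in replicate 1, since TPM divides by length. On protein-coding transcripts Plxnb2 was still the highest member, at 42.2 TPM in replicate 2 and 36.7 in replicate 1. Nrp1 was next on the mean of both libraries. In Plxna3, the retained-intron transcripts Plxna3-203 and Plxna3-204 held 7.39 and 4.14 TPM in replicate 2, and 6.44 and 4.51 TPM in replicate 1. In Sema6a, the retained-intron transcripts Sema6a-209 and Sema6a-208 held 8.52 and 6.67 TPM in replicate 2, and 7.98 and 9.01 TPM in replicate 1. Sema5b-204, a retained-intron transcript of 766 nucleotides, was at 3.54 TPM in replicate 2 and 2.73 in replicate 1. Sema6c-212, annotated as a target of nonsense-mediated decay, was at 3.11 TPM in replicate 2 and 2.97 in replicate 1, and Sema3f-208, annotated likewise, at 1.79 TPM in replicate 2 and 2.16 in replicate 1. The short retained-intron transcript Sema3f-202 was listed at 0 TPM in replicate 2 and stood at 1.58 TPM in replicate 1. Ranked by protein-coding transcripts, Plxna3 stood at rank 6 where gene TPM put it at 3, and Sema6c at rank 17 where gene TPM put it at 7.

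**Figure D4:**
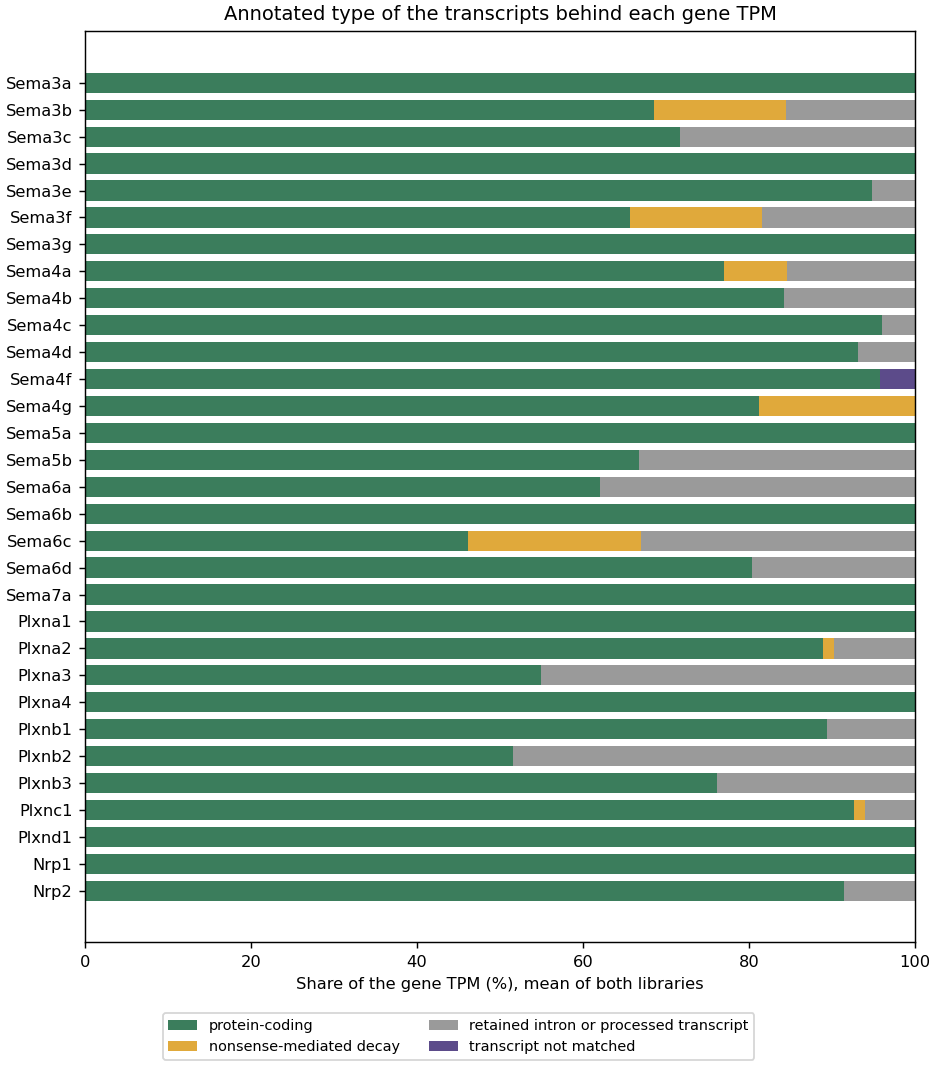
Share of each member's gene TPM, in percent and averaged over both libraries, held by transcripts annotated as protein-coding, as targets of nonsense-mediated decay, or as retained introns and processed transcripts. Sema6c (46.2%), Plxnb2 (51.5%) and Plxna3 (55.0%) have the smallest protein-coding shares.

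Leading transcripts were largely shared between the pools. Of 24 detected members with several annotated transcripts, 23 had the same transcript on top in both libraries, and over 9877 nuclear coding genes 92.2% did. The exception was Sema6a. Its Sema6a-202 was at 16.5 TPM in replicate 2 and 10.1 in replicate 1, against Sema6a-201 at 10.1 TPM in replicate 2 and 12.3 in replicate 1. In replicate 1 their deposited credibility intervals overlapped, 7.60 to 11.8 TPM for Sema6a-202 and 10.8 to 12.8 for Sema6a-201. By share of the gene's estimated counts, Sema6a-201 led in both libraries, with 30.4% in replicate 2 and 42.0% in replicate 1. Sema6a-202 held 29.4% of counts in replicate 2 and 20.6% in replicate 1. Every leader among these 24 was protein-coding, and of the same 9877 nuclear coding genes 787 had leaders of another annotated type in both libraries. The leader held under 50% of gene TPM in 7 members, against 23.8% of the same nuclear coding genes: Sema6a with 26.4% on average, Sema6d with 35.9%, Nrp2 with 38.2%, Sema4a with 39.2%, Sema6c with 40.8%, Sema4c with 41.1% and Sema3b with 43.7%. At the other end, 1 transcript held 100% of Plxnd1, 97.2% of Sema6b, 95.8% of Sema4f and 95.3% of Plxna1.

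Most of the family, like most genes compared, differed by less than 1.5-fold between the pools. Ratios of replicate 2 over replicate 1 were taken from estimated counts scaled with edgeR's TMM method, with an exact binomial interval that covers counting error only. Of 17048 genes with mean counts no lower than 20, 2.23% were at least 1.5-fold higher in replicate 2 and 4.25% at least 1.5-fold lower. All 31 members passed that count, none was 1.5-fold higher and 1, Sema3d, was 1.5-fold lower. Sema3d had 167 counts in replicate 2 and 236 in replicate 1, a ratio of 0.656 (95% counting interval 0.535 to 0.803, log2 -0.61). On gene TPM with a pseudocount of 1 or 0.1 it did not reach 1.5-fold. The member ratios had an SD of 0.21 on the log2 scale, and those of all genes compared 0.40. The 2 sets were not matched for counts, and ratios of genes with few counts vary more from counting alone.

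**Figure D5:**
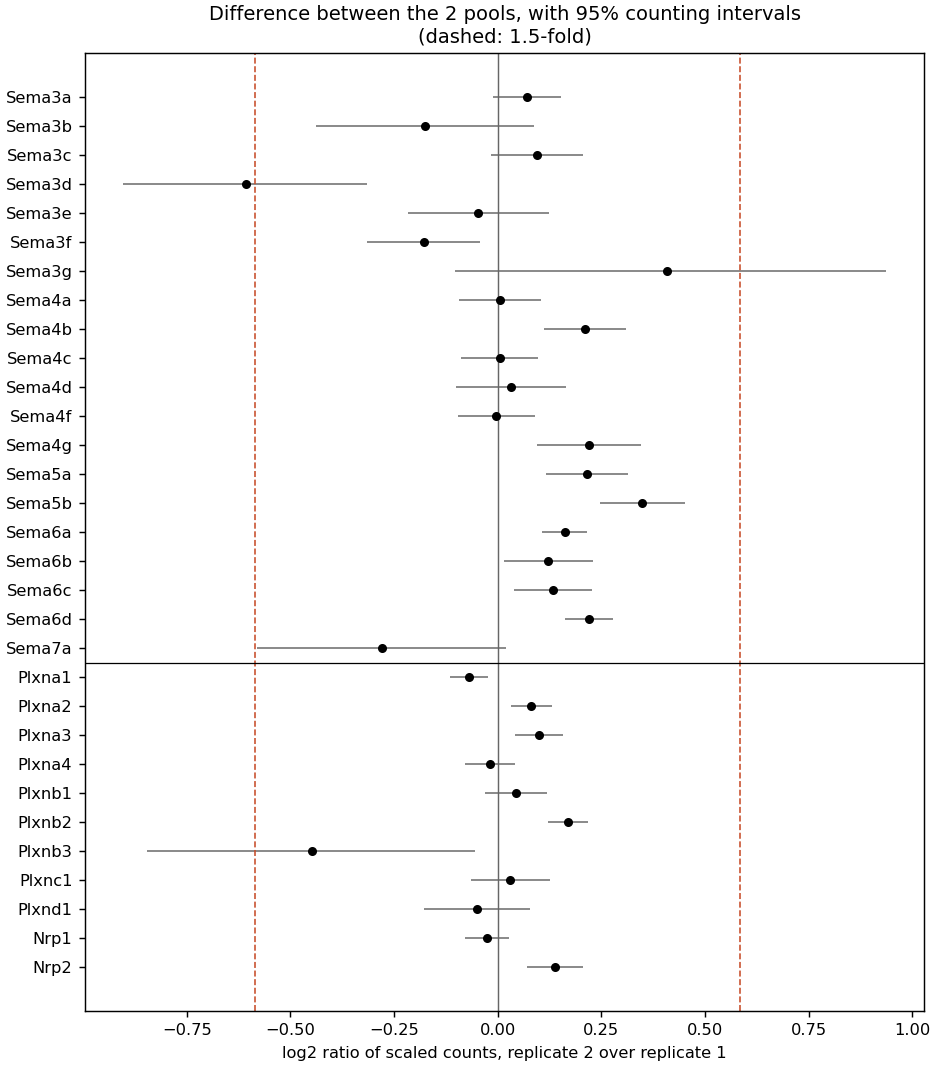
Log2 ratio of scaled estimated counts, replicate 2 over replicate 1, for each member, with the 95% counting interval as a line. Dashed lines mark 1.5-fold; Sema3d at -0.61 is the only point beyond them, and all 4 class 6 ligands lie right of 0, although on gene TPM Sema6c turns to lower in replicate 2.

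Smaller shifts exceeded counting error in several members. The interval lay wholly above 1 in 12 members, against 19.6% of all genes compared, and wholly below 1 in 4, against 18.5%. Intervals narrow as counts rise, and members and all genes were not matched for counts. The 4 were Sema3d, Sema3f, Plxna1 and Plxnb3. All 4 class 6 ligands were among the 12, with ratios of 1.12 for Sema6a, 1.09 for Sema6b, 1.10 for Sema6c and 1.16 for Sema6d. The class 6 ratios stayed above 1 under every other scaling of the counts, but for Sema6c the gene TPM was lower in replicate 2, so its direction depended on the unit. Sema5b had the largest ratio of the 12, 1.27 (1.19 to 1.37), from 1869 counts in replicate 2 and 1360 in replicate 1. Scaling by the spike-ins in place of TMM left 4 members wholly above 1 (Sema5a, Sema5b, Sema6d and Plxnb2) and put 12 wholly below, against 5.79% above and 43.8% below over all genes compared. Since every ratio compares 1 library with 1 library, none of them separates pools from preparations.

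Markers of other cell types also moved between the pools, and their part in the Sema3d, Sema3f and Sema5b values was not tested. Count ratios below are of TMM-scaled counts, for which the median log2 ratio over all genes compared was 0.0016. Spike-in scaling would shift every log2 ratio by -0.11. Of 12 meningeal and fibroblast markers, 11 had count ratios below 1, and their summed level was 523.1 TPM in replicate 2 and 649.1 in replicate 1. Of 12 microglia and macrophage markers, 11 were below 1, summing to 186.1 TPM in replicate 2 and 234.8 in replicate 1. Sensory ganglion and peripheral nerve markers were below 1 in 9 of 11 compared, summing to 170.0 TPM in replicate 2 and 223.2 in replicate 1. Motor neuron markers were below 1 in 7 of 9 compared, summing to 102.2 TPM in replicate 2 and 134.3 in replicate 1, and erythroid markers in 6 of 8, summing to 12391 TPM in replicate 2 and 15777 in replicate 1. Skeletal muscle markers were below 1 in 7 of 8 compared, 4 of them by at least 1.5-fold, summing to 19.1 TPM in replicate 2 and 28.4 in replicate 1. In the other direction, Purkinje lineage markers were above 1 in 9 of 10, summing to 643.4 TPM in replicate 2 and 547.7 in replicate 1, and choroid plexus markers in 9 of 10, summing to 1406 TPM in replicate 2 and 1049 in replicate 1. No gene of these 8 lists was at 0 in both libraries.

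Listed partners of the family were mostly detected as well, against 63.1% of nuclear protein-coding genes by the same rule. These lists were chosen with earlier results of these data known. All 14 listed co-receptors and other receptors were detected, with a median of 16.2 TPM in replicate 2 and 15.6 in replicate 1. L1cam, an adhesion molecule of the Nrp1 complex, was highest at 101.8 TPM in replicate 2 and 68.7 in replicate 1. Itgb1, the integrin subunit in Sema7a signalling, was at 71.3 TPM in replicate 2 and 73.4 in replicate 1, and the L1 relatives Chl1 and Nrcam were at 63.1 TPM and 48.5 TPM in replicate 2, against 61.9 TPM and 49.0 TPM in replicate 1. All 30 cytosolic effectors were detected, with a median of 52.9 TPM in replicate 2 and 49.3 in replicate 1. The actin-severing protein gene Cfl1 led them at 2322 TPM in replicate 2 and 2200 in replicate 1. Of the collapsin response mediators, Dpysl2 was at 988.2 TPM in replicate 2 and 991.0 in replicate 1, Dpysl3 at 944.4 TPM in replicate 2 and 861.6 in replicate 1, and Crmp1 at 758.8 TPM in replicate 2 and 615.8 in replicate 1.

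Of 6 proteases that process semaphorins or their receptors, 5 were detected, against the same 63.1% of nuclear protein-coding genes. Adam10 was at 44.3 TPM in replicate 2 and 44.2 in replicate 1, Mmp14 at 37.5 TPM in replicate 2 and 40.5 in replicate 1, Adam17 at 16.4 TPM in replicate 2 and 14.6 in replicate 1, and Pcsk5, a furin-like convertase, at 7.96 TPM in replicate 2 and 5.96 in replicate 1. Pcsk6, of the same convertase family, missed the detection limit with 1.46 TPM in replicate 2 and 0.84 in replicate 1. All 4 neuropilin ligands of the VEGF family were detected. Vegfb was highest among them at 54.6 TPM in replicate 2 and 51.2 in replicate 1, and Vegfa lowest at 2.72 TPM in replicate 2 and 2.90 in replicate 1. Pgf was at 6.71 TPM in replicate 2 and 6.28 in replicate 1, and Vegfc at 4.31 TPM in replicate 2 and 3.86 in replicate 1.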

How the data were processed

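Total RNA was measured in 2 hindbrain libraries of 1 group. Per the file headers and accompanying notes, the authors made the values on mm10 with GENCODE M4 from alignments of each library to the transcriptome, without pooling. The sources used here name no aligner, quantifier or strand setting. The deposited estimated counts hold reads assigned to a gene or transcript, without normalization; the deposited TPM and FPKM are scaled by length and depth, and the deposited posterior means and credibility bounds were read as signal values. The deposited isoform percent was not used, and shares were computed from transcript TPM.

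Identifiers without version were matched to GENCODE M21 (GRCm38), which named 42462 of 43346 genes. Of the 185 member transcripts, 184 matched by identifier and 15 of these differ in length from M21. Promoter windows are from RefSeq and were found for 26 members. Detection meant 1 TPM in both libraries. Estimated counts were scaled with edgeR 4.0.16 in R 4.3.3 on all genes, with a prior count of 0.5 in each ratio and Clopper-Pearson intervals. The mean count minimum of 20 set which genes were compared and which entered edgeR's coefficient of variation. The libraries carry no molecular identifiers, so intervals cover counting error only. Between all genes the libraries differed by more than counting noise, with a chi-square per degree of freedom of 12.4, and edgeR's common biological coefficient of variation was 0.0933. The ratio and interval code was checked on simulated data.

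Alternatives were other scalings (DESeq2 1.42.0 size factors, totals, spike-ins), other minimums, FPKM, posterior means and each library alone. All members are named. Of each pathway list, the 4 of highest mean TPM and each gene not detected are named. Members past 1.5-fold are named, as are those whose leading transcript differs, holds under 50% or is not coding, and the 4 highest shares. Other values shown were chosen after they were seen. The members and lists were chosen with earlier results of these data known.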

Additional observations from a re-analysis of the deposited data

How the results depend on the processing

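No paired analysis was possible because there is 1 group. The number of detected members was 28 under every alternative except the 0.5 TPM minimum, with 30, and replicate 1 alone, and ran from 28 to 29 over single libraries. The ligand share of 52.0% was 52.6% on posterior mean TPM and 41.2% on estimated counts, which are not divided by length; single libraries gave 51.8% to 52.1%. The ratio of ligand to receptor median was 0.459 on protein-coding transcripts, an alternative chosen after seeing the data, and 0.531 to 0.623 in single libraries; it stayed below 1 under every alternative run. The 1 member past 1.5-fold, Sema3d, became 0 with TPM ratios at a pseudocount of 1 or of 0.1 and with a fold of 2. The cause was not tested. With the spike-ins, a scaling chosen for this count after seeing the data, members with counting intervals wholly above 1 numbered 4 and those wholly below 1 numbered 12. Leading shares under 50% numbered 7 in each library alone and 10 on posterior means. Spike-in scaling shifted every log2 ratio by -0.11 and turned the sign of 9 members (Sema3a, Sema3c, Sema4a, Sema4c, Sema4d, Plxna2, Plxna3, Plxnb1 and Plxnc1), DESeq2 size factors that of Sema4f, and TPM ratios that of 7. Depth limits Sema3g most, at 79 counts in replicate 2 and 55 in replicate 1.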
